A study of Mus musculus with 16 samples.

Results

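The Ly6 family here comprises the 8 mouse genes Ly6a, Ly6c1, Ly6c2, Ly6d, Ly6e, Ly6g, Ly6i and Ly6k, taken by gene symbol from the 55291 symbols measured in every library. They were proposed with their levels in these libraries already known. The measured values they were chosen by are the FPKM levels over the 8 groups and, for Ly6c1 and Ly6c2, the lower day 1 levels in knockout than in wild type. The tests given below therefore set the size of a change against the spread between libraries and are not independent support for the choice, and the day 1 difference between genotypes is described without a test. All 8 genes passed the filter on low counts.

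RNA came from spleen cells of male C57BL/6 mice, either wild type (WT) or lacking PKR (PKR KO), the double-stranded RNA sensor kinase encoded by Eif2ak2. Both genotypes received 62.5 mg of a 5% imiquimod cream (Aldara) each day on shaved back skin, a widely used mouse model of psoriasis, and spleens were taken on days 0, 1, 2 and 5. Each of the 8 groups had 2 libraries of ribosomal RNA-depleted RNA, and a library pooled the spleens of 2 mice. The 2 libraries of a group came from different mice. Day 0 was the comparison group within each genotype, and no group analysed here had a cream without the drug, so imiquimod, cream and handling cannot be told apart. Neither the deleted part of Eif2ak2 nor the age of the mice is stated in the labels.

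Ly6 proteins are small, cysteine-rich proteins of the three-finger fold, most of which are held on the outer face of the cell membrane by a glycosylphosphatidylinositol (GPI) anchor. In mice several are classical antibody targets for sorting blood cells. Ly6a (Sca-1) marks blood stem cells and activated lymphocytes and responds to interferons. Ly6c1 and Ly6c2 together form the Ly6C antigen of inflammatory monocytes, some T cells and plasma cells. Ly6g is the neutrophil antigen, Ly6d is carried by B-lineage cells and by keratinocytes, and Ly6e is an interferon-induced protein found on many cells. Ly6k is best known from male germ cells.

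In the GENCODE M21 annotation all 8 genes lie on chromosome 15 (mm10), in the order Ly6d, Ly6k, Ly6e, Ly6i, Ly6a, Ly6c1, Ly6c2 and Ly6g. Ly6d, at the low end, occupies 74762056 to 74763620, and Ly6g, at the other end, 75155240 to 75159126. Ly6c1 (transcript ENSMUST00000065408.15, 75045013 to 75048830) and Ly6c2 (ENSMUST00000100542.9, 75108161 to 75111970) are both read from the minus strand and have 4 exons each. The first 300 of the 396 bases of each coding sequence are shown because the genotype difference on day 1 concerns this pair and because fragments of one could match the other. Over all 396 bases they share 387 (97.7%), and capitals mark 7 of the 9 positions at which they differ, the other 2 lying beyond the stretch shown.
Ly6c1: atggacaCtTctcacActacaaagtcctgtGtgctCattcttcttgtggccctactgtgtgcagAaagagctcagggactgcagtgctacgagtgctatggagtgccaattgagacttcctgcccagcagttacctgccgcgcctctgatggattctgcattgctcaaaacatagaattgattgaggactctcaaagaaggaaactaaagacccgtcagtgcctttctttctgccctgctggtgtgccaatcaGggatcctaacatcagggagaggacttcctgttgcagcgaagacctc
Ly6c2: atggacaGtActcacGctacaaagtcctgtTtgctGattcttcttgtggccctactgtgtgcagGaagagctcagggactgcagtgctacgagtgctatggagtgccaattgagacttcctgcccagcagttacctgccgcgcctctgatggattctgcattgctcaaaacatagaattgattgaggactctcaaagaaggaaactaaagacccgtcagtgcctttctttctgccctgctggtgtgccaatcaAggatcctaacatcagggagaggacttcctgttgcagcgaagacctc
Of all stretches of 100 bases in the kept Ly6c1 transcript, 15.3% also occur in a transcript of another gene, in each case Ly6c2, and 36.7% of stretches of 50 bases do. For the kept Ly6c2 transcript the shares are 15.8% and 33.0%. Ly6a shares 2.44% of its stretches of 100 bases, all with Ly6c1, and no other member shares any. The coding sequence of Ly6a is 86.4% identical to that of Ly6i and 83.2% to that of Ly6g. Ly6d, Ly6e and Ly6k stand apart, at 46.3% to 52.7% identity with any other member. How the submitters' counting treated a fragment that matches more than 1 gene is not given in the sources used here, so the levels of Ly6c1 and Ly6c2 are uncertain to the extent that such fragments could be split between them. The sum of both is not subject to an exchange within the pair.

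Depth was 35026754 to 67333830 fragments per library. Eif2ak2 stood at 12.4 to 43.0 CPM, counts scaled by library total and TMM factor, in 7 of the 8 knockout libraries and at 24.9 to 101 CPM in wild type, and in wild type it was highest on day 1. The library labelled KO day 2 replicate 1 held 47.5 CPM, above both wild-type libraries of that day (32.8 and 42.5 CPM), so it goes against its label by this measure. The fitted knockout values for day 2 are therefore also given without that library, for the members and for the gene lists named beside them. B cell markers (summed level 452 to 968 FPKM, fragments scaled by library total and transcript length) and T cell markers (34.4 to 289 FPKM) were present in every library. Keratinocyte markers summed to 0.246 to 0.514 FPKM, with Lor at 0 in all 16 libraries. In bulk RNA a change in the number of cells of a type cannot be told apart from a change in RNA per cell. The files' FPKM per library are given as levels, while changes are log2 differences of TMM-scaled counts from edgeR. The 2 scales differ most on wild-type day 1, where the TMM factors were 1.204 and 1.195 against 0.9331 to 1.069 elsewhere, so FPKM ratios there exceed the fitted folds.

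Across untreated spleens 4 members made up nearly all of the family's transcript. The summed FPKM of the 8 genes averaged 542 in wild type and 519 in knockout on day 0. Ly6d held 42.2% of the wild-type sum, Ly6e 37.8%, Ly6a 9.69% and Ly6c2 7.75%. On day 1 the sum was 1520 in wild type and 1160 in knockout, and Ly6a had become the leading member in wild type at 30.6%, with Ly6e at 23.7%, Ly6d at 23.2% and Ly6c2 at 19.3%. In knockout on day 1 Ly6d still led at 32.6%, Ly6a followed at 27.0%, and Ly6c2 held 13%. By day 5 the sums were 484 and 438, and Ly6d and Ly6e again led with 40.9% and 33.7% in wild type and 41.5% and 35.0% in knockout. The summed level thus rose and returned while its composition passed from Ly6d and Ly6e to a mix in which Ly6a and Ly6c2 weighed more.

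**Figure D1:**
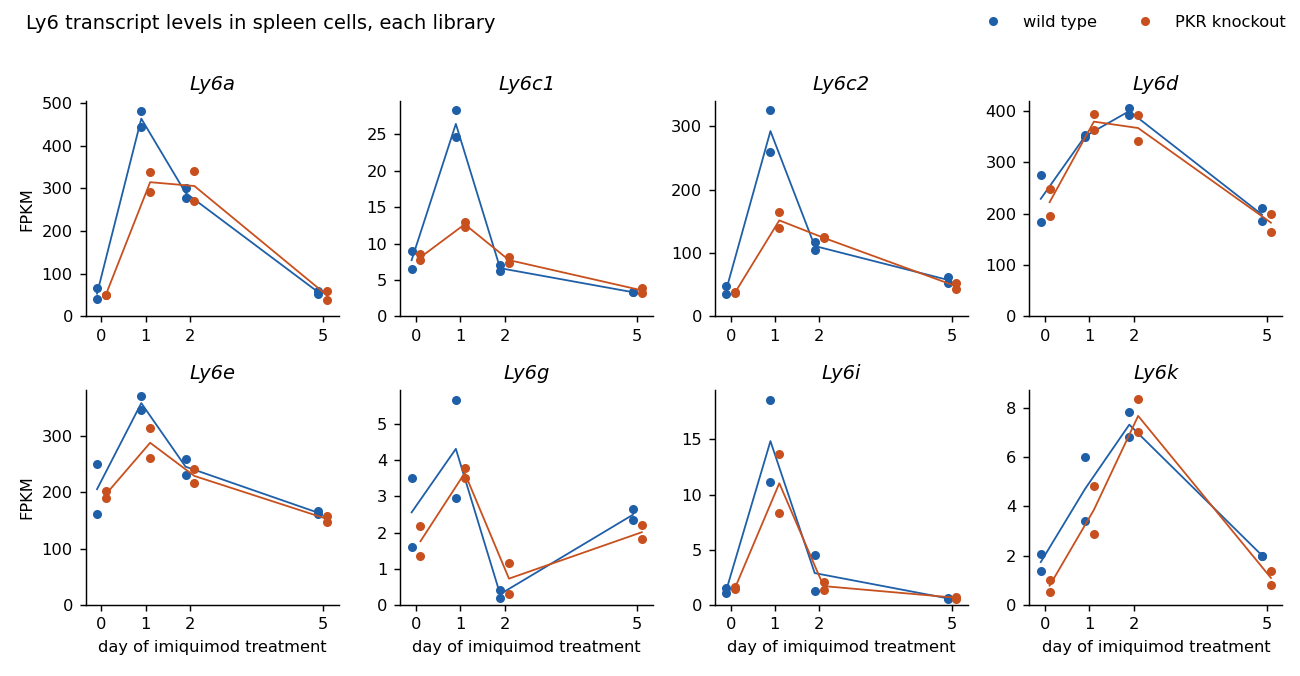
FPKM of each of the 8 genes by day of imiquimod treatment, 1 point per library, with lines through the means of 2 libraries for wild type (blue) and PKR knockout (orange). Ly6a, Ly6c1, Ly6c2, Ly6e, Ly6g and Ly6i have their highest mean on wild-type day 1, where Ly6g and Ly6i overlap knockout day 1. Ly6k stands highest on day 2 in both genotypes, and Ly6g is lowest on day 2 in both.

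**Figure D2:**
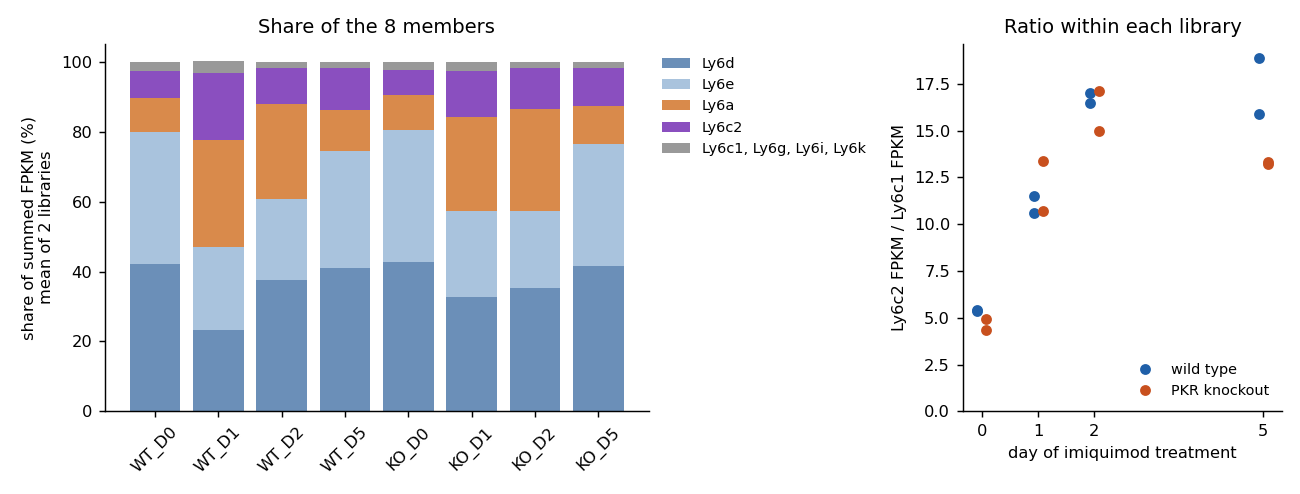
Left, the share of the family's summed FPKM held by each member in the 8 groups, as means of 2 libraries. Right, the ratio of Ly6c2 to Ly6c1 FPKM of the kept transcripts in each library by day. It lies between 4.33 and 5.40 at day 0 and between 10.6 and 18.9 on later days.

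On day 1 of treatment 6 of the 8 members rose in wild type, where 21.9% of all 18744 genes tested rose and 22.7% fell. In knockout 7 of 8 rose, where 20.7% of all genes rose and 20.9% fell. The median log2 change of the 8 was 1.32 in wild type and 1.39 in knockout, against medians over all genes of -0.0706 and -0.0362. On day 2, 4 members rose and 1 fell in wild type (all genes: 22.3% and 23.0%), and 4 rose in knockout (all genes: 24.1% rose and 25.6% fell), with medians of 1.05 and 0.44. On day 5, 1 member rose and 1 fell in wild type (all genes: 21.5% and 18.1%), which is near the share over all genes, and 2 fell in knockout (all genes: 22.1%, with 22.8% higher). The 3 comparisons within a genotype use the same day 0 libraries, so they are not independent of each other.

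**Figure D3:**
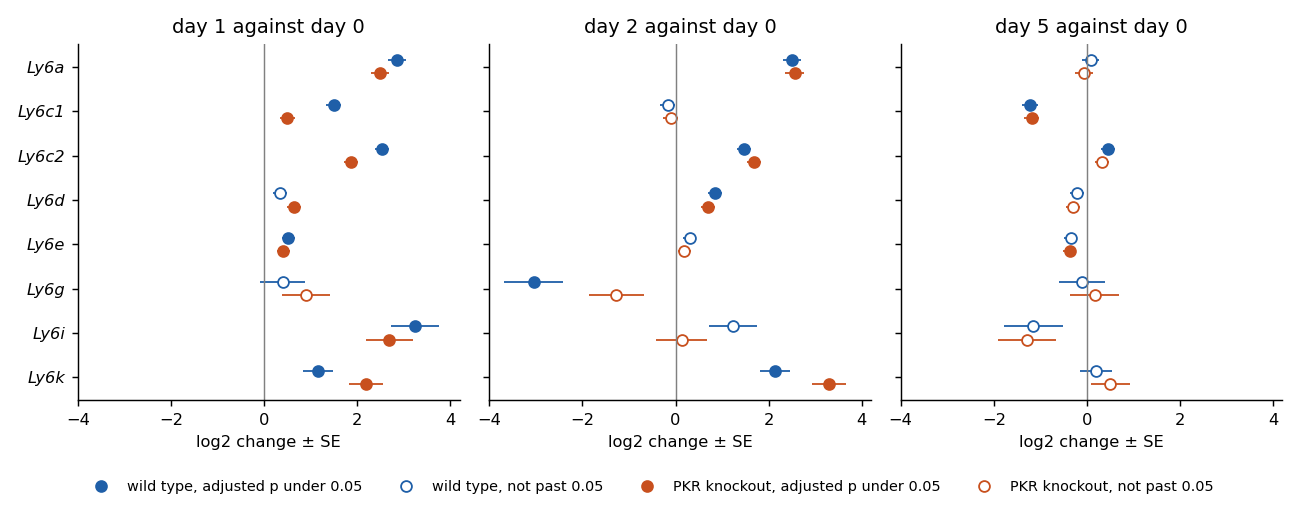
Fitted log2 change against day 0 of the same genotype for each member on days 1, 2 and 5, with bars of 1 SE, wild type in blue and PKR knockout in orange. Filled points passed an edgeR adjusted p under 0.05: Ly6a and Ly6c2 rose on days 1 and 2 in both genotypes, and Ly6c1 lies above 0 on day 1 and below it on day 5.

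Ly6a, the stem cell and activated-lymphocyte antigen, showed a large rise lasting 2 days. Its levels in wild type were 65.7 and 40.2 FPKM at day 0, 482 and 445 at day 1, 277 and 302 at day 2, and 59.4 and 53.2 at day 5. In knockout they were 50.3 and 51.1, then 291 and 338, then 340 and 271, then 39.1 and 58.6 FPKM. Both day 1 and day 2 stood clear of day 0 in each genotype, with no overlap, while day 5 overlapped day 0. The fitted rise on day 1 was 7.19-fold in wild type (log2 2.85, SE 0.20, edgeR adjusted p = 2.96e-08) and 5.61-fold in knockout (log2 2.49, SE 0.20, edgeR adjusted p = 7.99e-08). On day 2 it was 5.65-fold in wild type and 5.89-fold in knockout (edgeR adjusted p = 3.9e-08 and 2.47e-08). Without the library labelled KO day 2 replicate 1 the knockout value was 2.44 on the log2 scale in place of 2.56. The day 5 levels stood 0.079 from day 0 in wild type and -0.06 in knockout on the log2 scale, with edgeR adjusted p of 0.772 and 0.825. Of 8 other markers of stem and progenitor cells tested, 5 fell on day 1 and 4 on day 2 in wild type, and 3 and 4 in knockout (3 of 9 tested on day 2 without the library labelled KO day 2 replicate 1).

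Ly6i, a close relative of Ly6a in coding sequence, was low except on day 1. Wild-type libraries held 1.5 and 1.09 FPKM at day 0, 18.6 and 11.1 at day 1, 1.24 and 4.51 at day 2, and 0.556 and 0.619 at day 5. Knockout libraries held 1.65 and 1.41, then 8.35 and 13.7, then 1.36 and 2.03, then 0.534 and 0.741 FPKM. The day 1 libraries of both genotypes lay above every other library, and the genotypes overlapped on that day. The rise on day 1 was 9.43-fold in wild type (log2 3.24, SE 0.51, edgeR adjusted p = 0.000568) and 6.47-fold in knockout (log2 2.69, SE 0.51, edgeR adjusted p = 0.00181). On day 2 neither genotype passed (log2 1.24, SE 0.52, in wild type and 0.13 in knockout, where it was 0.42 without the library labelled KO day 2 replicate 1). The wild-type value rests on single libraries: it was 1.91 and passed without wild-type day 2 replicate 1 (edgeR adjusted p = 0.000382), was 0.014 without day 2 replicate 2 (edgeR adjusted p = 0.986), and passed in 2 of 25 alternatives. The day 5 values of -1.15 and -1.28 (SE 0.63 and 0.62) did not pass either.

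Ly6e, the broadly found interferon-induced member, began high and moved little. Its wild-type levels were 250 and 161 FPKM at day 0, 371 and 346 at day 1, 260 and 231 at day 2, and 166 and 161 at day 5. Knockout levels were 203 and 190, then 261 and 315, then 241 and 217, then 148 and 157 FPKM. By group mean day 1 was the highest day in each genotype and day 5 the lowest. The day 1 rise was 1.43-fold in wild type (log2 0.52, SE 0.14, edgeR adjusted p = 0.00733) and 1.33-fold in knockout (log2 0.41, SE 0.14, edgeR adjusted p = 0.0294). The wild-type call was lost without wild-type day 0 replicate 2 (edgeR adjusted p = 0.113), and the knockout call without any 1 of knockout day 0 replicate 1, day 0 replicate 2 or day 1 replicate 2 (edgeR adjusted p = 0.056, 0.124 and 0.208). On day 2 it stood 0.19 above day 0 in knockout on the log2 scale and did not pass, with 0.16 without the library labelled KO day 2 replicate 1. On day 5 Ly6e passed in knockout (1.29-fold lower, log2 -0.37, edgeR adjusted p = 0.0447) but in 6 of 25 alternative analyses only, with adjusted p from 0.0242 to 0.333, and it did not pass in wild type (log2 -0.35, edgeR adjusted p = 0.0654).

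A list of 30 interferon-stimulated genes, from which the members were left out, moved on the same day. All 30 rose on day 1 in wild type (median log2 change 2.35) and 29 in knockout (median 2.17). On day 2, 8 rose and 6 fell in wild type, and 7 rose and 6 fell in knockout. The number that fell became 1 in wild type without day 0 replicate 1 or day 2 replicate 1 of that genotype, and 1 in knockout without knockout day 0 replicate 2. Without the library labelled KO day 2 replicate 1, 9 rose and 3 fell in knockout (median 0.406). Their summed level was 272 to 395 FPKM in wild type on day 0, 1690 to 2120 on day 1 and 458 to 539 on day 2. In knockout it was 275 to 289, 1330 to 1350 and 484 to 509 FPKM on those days. On day 2 Ly6i, Ly6e and Ly6c1 did not pass the test against day 0, while Ly6a and Ly6c2 did. The part of these genes' movement in the Ly6 levels was not tested.

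Ly6c1 and Ly6c2, the monocyte antigen pair, both peaked on day 1, and on day 2 Ly6c2 alone of the pair passed the test against day 0. Ly6c1 levels in wild type were 8.94 and 6.49 FPKM at day 0, 28.3 and 24.6 at day 1, 6.17 and 7.06 at day 2, and 3.31 in both libraries at day 5. In knockout they were 7.71 and 8.52, then 13 and 12.3, then 8.15 and 7.30, then 3.22 and 3.92 FPKM. Day 1 lay above and day 5 below every other day in each genotype. The rise on day 1 was 2.81-fold in wild type (log2 1.49, SE 0.16, edgeR adjusted p = 8.67e-07) and 1.41-fold in knockout (log2 0.50, SE 0.16, edgeR adjusted p = 0.0175). The knockout call was lost without knockout day 0 replicate 1 (edgeR adjusted p = 0.0918) or day 1 replicate 1 (edgeR adjusted p = 0.114). On day 5 Ly6c1 had fallen 2.35-fold in wild type (log2 -1.23, SE 0.17, edgeR adjusted p = 1.78e-05) and 2.29-fold in knockout (log2 -1.19, SE 0.17, edgeR adjusted p = 1.91e-05), a call kept in all 25 alternatives in both. Erythroid markers rose on that day from 395 to 892 FPKM summed in wild type on day 0 to 5860 to 8570 on day 5, and from 747 to 1180 to 11800 to 16200 in knockout, and their part in the day 5 levels was not tested.

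Ly6c2 was the more abundant of the pair in every library. Its wild-type levels were 48.2 and 35.0 FPKM at day 0, 325 and 260 at day 1, 105 and 117 at day 2, and 52.6 and 62.6 at day 5. Knockout levels were 38.0 and 36.9, then 139 and 164, then 123 and 125, then 42.4 and 52.2 FPKM. Days 1 and 2 were separate from day 0 and from each other in both genotypes. The day 1 rise was 5.76-fold in wild type (log2 2.53, SE 0.15, edgeR adjusted p = 1.96e-09) and 3.66-fold in knockout (log2 1.87, SE 0.15, edgeR adjusted p = 2.9e-08). On day 2 Ly6c2 stood 2.74-fold above day 0 in wild type and 3.24-fold in knockout (edgeR adjusted p = 2.75e-07 and 3.7e-08), and the knockout value was 1.75 without the library labelled KO day 2 replicate 1, against 1.69 with it, on the log2 scale. Ly6c1 on day 2 was at -0.17 in wild type and -0.10 in knockout on the log2 scale, with edgeR adjusted p of 0.409 and 0.629, and at -0.14 in knockout without that library. Over the alternatives Ly6c1 ran from -0.30 to 0.17 in wild type and from -0.14 to 0.15 in knockout. A small rise of Ly6c2 on day 5 in wild type (1.37-fold, edgeR adjusted p = 0.0195) was lost without wild-type day 0 replicate 2 (edgeR adjusted p = 0.158) or day 5 replicate 2 (edgeR adjusted p = 0.172), and by limma. In knockout the day 5 value was 0.33 (SE 0.15, edgeR adjusted p = 0.0771).

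The balance within the pair shifted accordingly, by a size that depends on the Ly6c1 transcript kept. In wild type the kept Ly6c1 transcript held 335 and 369 fragments on day 0 and 185 and 310 on day 2. Another, ENSMUST00000188845.6, held 163 and 231, then 166 and 272. In knockout the day 0 counts were 325 and 295 against 204 and 179, and those of day 2 were 245 and 257 against 207 and 214. The ratios below use the kept transcripts. The FPKM ratio of Ly6c2 to Ly6c1 was 5.40 and 5.38 in wild type on day 0, 11.5 and 10.6 at day 1, 17.0 and 16.5 at day 2, and 15.9 and 18.9 at day 5. In knockout it was 4.93 and 4.33, then 10.7 and 13.4, then 15.0 and 17.1, then 13.2 and 13.3. Every treated library exceeded every day 0 library, and the 2 genotypes overlapped on days 1 and 2 and not on days 0 and 5. Of 14 monocyte markers tested, 2 rose and 6 fell on day 1 in wild type, 7 fell on day 2, and 7 rose and 2 fell on day 5. In knockout 3 rose and 5 fell on day 1, 10 fell on day 2 (8 without the library labelled KO day 2 replicate 1), and 6 rose and 2 fell on day 5. Their summed level was 235 to 251 FPKM on day 0, 252 to 308 on day 1, 130 to 142 on day 2 and 263 to 294 on day 5 in wild type. In knockout it was 239 to 254, 211 to 265, 110 to 121 and 220 to 254 FPKM. Of 12 plasma cell markers 8, 12 and 8 rose on days 1, 2 and 5 in wild type and 7, 12 and 6 in knockout, and 2 fell on day 5 in each. Of 10 T cell markers 7, 10 and 10 fell on those days in wild type, and 10 on each day in knockout. Their median log2 changes on day 2 in knockout were 3.09 and -2.63, and 2.61 and -2.25 without the library labelled KO day 2 replicate 1. The part of these monocyte, plasma cell and T cell markers in the levels of the pair was not tested.

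Between genotypes on day 1, Ly6c1 and Ly6c2 were lower in knockout, the difference for which they were chosen. Ly6c1 held 28.3 and 24.6 FPKM in wild type and 13 and 12.3 in knockout, a ratio of means of 2.09, and on the TMM-scaled CPM scale the means were 18.6 and 10.2, a ratio of 1.81. Ly6c2 held 325 and 260 FPKM in wild type and 139 and 164 in knockout, a ratio of 1.93, and CPM means of 201 and 119 gave 1.68. As fitted, knockout minus wild type was -0.86 (SE 0.16) for Ly6c1 and -0.75 (SE 0.14) for Ly6c2 on the log2 scale. Over the alternative analyses these values ran from -1.06 to -0.78 and from -0.95 to -0.60. The transcripts of a gene share fragments, so their values are not separate readings of the difference. In counts scaled by library total without TMM, the reduction was 2.01 to 2.28-fold over the 7 transcripts of Ly6c1. Over the 4 of Ly6c2 it was 1.93 to 1.96-fold. Ly6a was lower in knockout as well (log2 -0.36, SE 0.18), Ly6d was higher (log2 0.31, SE 0.15), and in both the libraries of the genotypes did not overlap. These 4 of 8 members had day 1 libraries that were separate on the CPM scale, as did 47.4% of all 18744 genes tested, so the count of separate members is near that over all genes. The other 4 members overlapped on that scale (Ly6e did not in FPKM), at -0.11 (SE 0.14) for Ly6e, -0.03 (SE 0.48) for Ly6g, -0.23 (SE 0.45) for Ly6i and -0.079 (SE 0.30) for Ly6k. Beside these, the median day 1 difference of the 30 interferon-stimulated genes, knockout minus wild type, was -0.356 on the log2 scale. The monocyte list had a median difference of 0.272, with summed levels of 252 to 308 FPKM in wild type and 211 to 265 in knockout. Mature neutrophil markers had a median difference of 0.425 and sums of 1130 to 2470 and 1920 to 2280 FPKM. T cell markers stood at -0.457, with sums of 205 to 230 and 133 to 143 FPKM. B cell markers stood at -0.182, with 767 to 919 and 578 to 645, and plasma cell markers at -0.208, with 3300 to 3780 and 2760 to 2860. The T cell, B cell and plasma cell sums did not overlap between genotypes. Nor did those of the interferon-stimulated genes (1690 to 2120 and 1330 to 1350) and of plasmacytoid dendritic cell markers (118 to 136 and 88.1 to 88.4). Endothelial markers (28.1 to 31.5 and 24.0 to 26.9) and genes of GPI-anchor synthesis and attachment (152 to 156 and 127 to 139) were separate too. Their median differences were 0.18 and -0.000793. Sums of the erythroid, stem and progenitor, keratinocyte and other Ly6/uPAR-domain lists overlapped. These sums are in FPKM, which stands high on wild-type day 1 relative to TMM-scaled values. The 8 markers of plasmacytoid dendritic cells had a median of -0.176, and Bst2, which is also an interferon-stimulated gene, made up most of their sum at 96.2 to 114 FPKM in wild type and 67.7 to 68.9 in knockout. The other 7 of them summed to 22.3 to 22.9 and 19.2 to 20.7 FPKM. The part of these lists in the Ly6c difference was not tested.

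**Figure D4:**
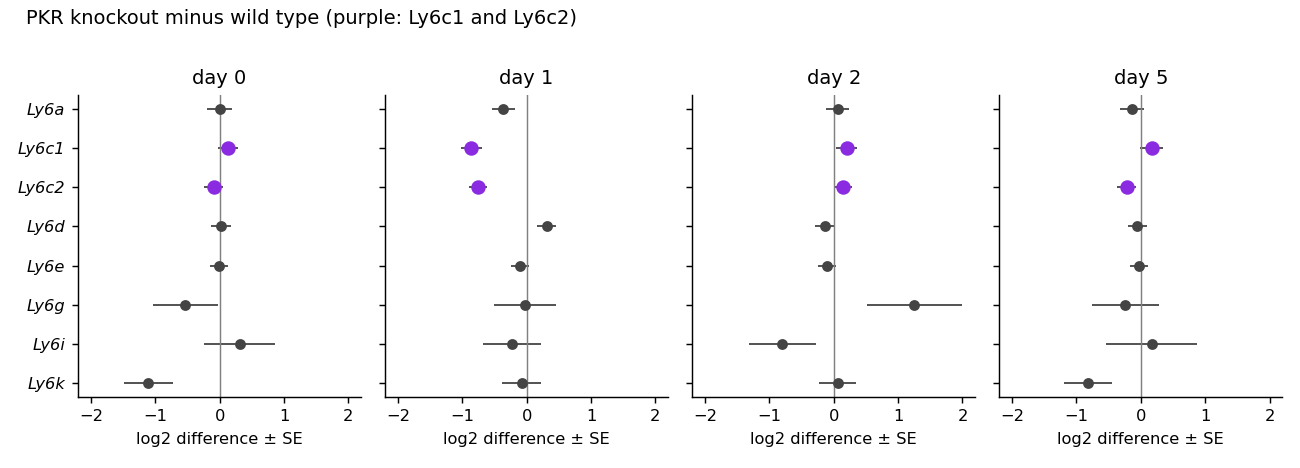
Knockout minus wild type on each day for the 8 members, as fitted log2 differences with bars of 1 SE; Ly6c1 and Ly6c2 are in purple, and day 1 carries no test. The pair lies at -0.86 and -0.75 on day 1 and within 0.22 of 0 on the other days.

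On the other days no member passed the edgeR test between genotypes. The count was 0 of 8 on day 0, where 0.0213% of all genes did, on day 2, where 0.0% did, or on day 5, where 0.00534% did, and the lowest edgeR adjusted p over the members were 0.802, 0.991 and 0.766. DESeq2 also called none, and the edgeR p before adjustment was under 0.05 for 1, 0 and 1 members. Differences for Ly6c1 were 0.13, 0.20 and 0.17 (SE 0.16, 0.16 and 0.18) on the log2 scale on days 0, 2 and 5. For Ly6c2 they were -0.093, 0.15 and -0.22 (SE 0.15, 0.14 and 0.15). Without the library labelled KO day 2 replicate 1 the day 2 differences were 0.17 for Ly6c1 and 0.20 for Ly6c2. For the other members they were then -0.064 (Ly6a), -0.20 (Ly6d), -0.15 (Ly6e), 1.90 (Ly6g), -0.52 (Ly6i) and 0.22 (Ly6k), with edgeR adjusted p from 0.475 to 0.957 over the 8. Libraries of the genotypes did not overlap in CPM for 2 of 8 members on day 0 (Ly6i and Ly6k), 3 on day 2 (Ly6c1, Ly6d and Ly6e) and 2 on day 5 (Ly6g and Ly6k), against 32.3%, 32.0% and 38.0% of all genes. The knockout libraries of Ly6k lay below both wild-type libraries on day 0 (log2 -1.11, SE 0.38) and day 5 (log2 -0.82, SE 0.37). The change from day 0 to day 2 did not pass as different between genotypes for any member, with 1 unadjusted p under 0.05, nor did that to day 5, with 0 (0.0% of all genes in each, and 0 members by DESeq2). At 2 libraries a group, Ly6g on day 2 carried an SE of 0.74 for its difference of 1.25, and an SE of 0.66 for 1.90 without the library labelled KO day 2 replicate 1, so only large differences could have been detected in the low members.

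Ly6d, the B-lineage member, had the highest FPKM of the 8 in untreated spleens and varied least, in proportion, over the libraries. Wild-type libraries held 275 and 183 FPKM at day 0, 349 and 353 at day 1, 407 and 393 at day 2, and 211 and 185 at day 5. Knockout libraries held 249 and 196, then 364 and 395, then 393 and 341, then 165 and 200 FPKM. Days 1 and 2 lay above days 0 and 5 without overlap. The rise on day 2 was 1.80-fold in wild type (log2 0.85, SE 0.15, edgeR adjusted p = 0.000183) and 1.61-fold in knockout (log2 0.69, SE 0.15, edgeR adjusted p = 0.00106, and 0.63 without the library labelled KO day 2 replicate 1). On day 1 it passed in knockout (1.54-fold, edgeR adjusted p = 0.00295), a call lost without knockout day 0 replicate 2 (edgeR adjusted p = 0.0559), and not in wild type (log2 0.33, SE 0.15, edgeR adjusted p = 0.0831). Of 10 B cell markers 5, 6 and 9 fell on days 1, 2 and 5 in wild type, and 7, 8 and 9 in knockout (7 on day 2 without the library labelled KO day 2 replicate 1). Their summed level was 764 to 968 FPKM in wild type on day 0 and 549 to 643 on day 2, days between which Ly6d rose.

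Ly6k, the germ cell member, was a low transcript whose peak came on day 2. Its levels in wild type were 2.08 and 1.39 FPKM at day 0, 5.99 and 3.42 at day 1, 7.82 and 6.81 at day 2, and 2.00 in both libraries at day 5. In knockout they were 0.532 and 1.02, then 2.89 and 4.82, then 7.0 and 8.34, then 0.812 and 1.37 FPKM. Day 2 stood above every other day in both genotypes. The day 2 rise was 4.37-fold in wild type (log2 2.13, SE 0.32, edgeR adjusted p = 3.67e-05) and 9.87-fold in knockout (log2 3.30, SE 0.36, edgeR adjusted p = 8.15e-07, 3.46 without the library labelled KO day 2 replicate 1 and 3.9 without knockout day 0 replicate 2). On day 1 it was 2.23-fold in wild type (edgeR adjusted p = 0.00701) and 4.57-fold in knockout (edgeR adjusted p = 0.000128). The wild-type day 1 call was lost without wild-type day 0 replicate 2 (edgeR adjusted p = 0.0862) or day 1 replicate 1 (edgeR adjusted p = 0.108). Plasma cell markers moved over the same days: all 12 rose on day 2 in each genotype, with median log2 changes of 2.96 and 3.09, and all 12 rose in knockout without the library labelled KO day 2 replicate 1 too (median 2.61). Their summed level was 1380 to 1780 FPKM in wild type on day 0, 11500 to 16300 on day 2 and 3660 to 4320 on day 5, and in knockout 1160 to 1180, 9420 to 17500 and 2320 to 2890 FPKM. On day 5, 8 of the 12 still stood higher than on day 0 by the test and 2 lower in wild type, and 6 and 2 in knockout, whereas Ly6k was at 0.20 in wild type and 0.50 in knockout on the log2 scale (edgeR adjusted p = 0.672 and 0.352). Their part in the Ly6k level was not tested.

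Ly6g, the neutrophil antigen, fell on day 2. Wild-type libraries held 1.60 and 3.52 FPKM at day 0, 5.68 and 2.96 at day 1, 0.179 and 0.409 at day 2, and 2.34 and 2.65 at day 5. Knockout libraries held 2.17 and 1.35, then 3.5 and 3.8, then 0.299 and 1.15, then 1.81 and 2.21 FPKM. Day 2 was below every other day in each genotype, and in wild type day 0 overlapped both day 1 and day 5. These levels rest on few fragments: 67 and 223 in wild type on day 0 and 6 and 20 at day 2, and 102 and 52 against 10 and 45 in knockout. The fall was 8.25-fold in wild type (log2 -3.05, SE 0.64, edgeR adjusted p = 0.00216) and passed in all 25 alternatives, with -2.23 without wild-type day 0 replicate 2 and -3.8 without wild-type day 2 replicate 2. In knockout it was 2.41-fold and did not pass (log2 -1.27, SE 0.59, edgeR adjusted p = 0.0958), though the 2 days were separate and 3 of 25 alternatives passed. Without the library labelled KO day 2 replicate 1 it was -0.61 (SE 0.56, edgeR adjusted p = 0.42). The difference between the genotypes' falls was 1.78 (SE 0.90, edgeR adjusted p = 1.0), and 2.43 (SE 0.78, edgeR adjusted p = 0.7) without that library. Of 14 neutrophil markers 9 fell on day 2 in wild type (median log2 change -1.59), and 5 fell in knockout (median -0.79), where 1 rose and 3 fell without the library labelled KO day 2 replicate 1 (median -0.346). Their summed level was 1040 to 1710 FPKM on day 0 and 265 to 418 on day 2 in wild type, and 1040 to 1190 and 341 to 824 in knockout. Fewer neutrophils and less Ly6g per cell cannot be told apart here.

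In the order of group means, members differed in how many neighbouring groups had libraries that did not overlap in FPKM, a description without a test. The share over all genes was not computed for neighbouring groups, so the counts below are not read as particular to the members. Between genotypes on the same day, which is another comparison and scale, 32.0% to 47.4% of all genes did not overlap in CPM. For Ly6c2, 5 of 7 neighbouring groups did not overlap, running from wild-type day 1 (293 FPKM) through knockout day 1 (152), knockout day 2 (124) and wild-type day 2 (111) to wild-type day 5 (57.6), with overlap between knockout day 5 (47.3) and wild-type day 0 (41.6) and between the latter and knockout day 0 (37.5). In CPM the Ly6c2 libraries of knockout and wild type overlapped on day 2 and on day 5. The edgeR adjusted p there were 0.991 and 0.936, so those steps of the order hold in FPKM only. For Ly6d only 1 of 7 was free of overlap, the step from wild-type day 1 (351) to wild-type day 0 (229). Ly6c1 had 3 clear steps, from wild-type day 1 (26.4) to knockout day 1 (12.6), from there to knockout day 0 (8.12), and from wild-type day 2 (6.62) to knockout day 5 (3.57). Between the lowest and highest library the range was 2.47-fold for Ly6d and 2.51-fold for Ly6e, 8.78 to 15.7-fold for Ly6a, Ly6c1, Ly6c2 and Ly6k, and 31.6 and 34.8-fold for Ly6g and Ly6i.

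Patterns over the 16 libraries, compared as Pearson r of log2 CPM across 10661 genes, set the members in different company. These correlations are descriptions over libraries that share days and genotypes. Ly6a was most like the glycolytic genes Pgk1 (0.989) and Pkm (0.987) and the peroxiredoxin Prdx1 (0.982), and Ly6c2 most like Ldha (0.978), the lactate dehydrogenase subunit, Mrpl21 (0.973) and Snrpd2 (0.972). Ly6c1 was most like Psme2 (0.971), a proteasome activator subunit, the RNA sensor gene Ddx58 (0.97) and Atp10a (0.969). Ly6i lay nearest to Ifi35 (0.968), Xaf1 (0.961) and Oas2 (0.959), all interferon-induced genes. Ly6e lay nearest to the antigen-loading genes Tapbp (0.97) and Tapbpl (0.969), then Ppp1r11 (0.958). Ly6g was most like S100a9 (0.972) and S100a8 (0.967), the abundant calcium-binding proteins of neutrophils, and Ifitm6 (0.954). Ly6k was most like Ergic1 (0.952), Sdf2l1 (0.947) and Hyou1 (0.944), genes of the secretory pathway, and Ly6d like Chpf (0.961), St14 (0.956) and Tnfrsf13b (0.952), the last of these a receptor of B cells. Between members, r was 0.951 for Ly6a and Ly6c2 but 0.691 for Ly6c1 and Ly6c2, the pair with the most similar coding sequence, and 0.884 for Ly6c1 and Ly6i.

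The sequence before the start of Ly6c1 and Ly6c2 is less alike than their coding sequence, and is shown because the genotype difference on day 1 concerns this pair. The part of this sequence in the levels of the pair was not tested. RefSeq (GRCm38.p6) windows were found for 3 of the 8 members, Ly6c1, Ly6c2 and Ly6g. The 250 bases upstream of the first listed start of each gene of the pair follow, read on the minus strand from chr15:75048838-75049087 for Ly6c1 and chr15:75111972-75112221 for Ly6c2. Capitals mark bases with no identical partner in the best local alignment of the windows of 300 bases, which also hold the 50 bases after the start.
Ly6c1 upstream: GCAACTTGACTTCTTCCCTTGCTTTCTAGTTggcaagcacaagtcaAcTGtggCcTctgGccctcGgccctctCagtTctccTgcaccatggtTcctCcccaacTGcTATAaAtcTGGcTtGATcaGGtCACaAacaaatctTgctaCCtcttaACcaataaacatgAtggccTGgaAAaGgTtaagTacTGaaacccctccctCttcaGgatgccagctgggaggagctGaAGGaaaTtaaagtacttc
Ly6c2 upstream: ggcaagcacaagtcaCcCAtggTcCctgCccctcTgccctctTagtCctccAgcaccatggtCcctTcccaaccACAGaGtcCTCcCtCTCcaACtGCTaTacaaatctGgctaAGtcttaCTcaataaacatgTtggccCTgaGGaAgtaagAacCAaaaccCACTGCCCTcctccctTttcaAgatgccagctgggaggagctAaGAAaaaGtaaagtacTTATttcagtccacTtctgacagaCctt
The alignment covers 282 columns, of which 208 are identical (73.8%), and the Ly6g window is 76.3% identical to that of Ly6c1 and 70.3% to that of Ly6c2.

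Most of the wider family was too low to test in spleen. Of 40 other genes with a Ly6/uPAR domain 9 passed the filter on low counts. Over all genes in wild type, 21.9%, 22.3% and 21.5% rose on days 1, 2 and 5, and 22.7%, 23.0% and 18.1% fell. Of these 9 in wild type, 2 rose and 2 fell on each of days 1 and 2, which is near those shares. On day 5, 3 of the 9 rose and 1 fell. Without wild-type day 0 replicate 2 the number that rose was 1 on each of the 3 days. Gml, a neighbour in the same family, rose on day 1 (log2 2.76 in wild type and 2.86 in knockout, edgeR adjusted p = 0.00126 and 0.000503) and day 2 (3.97 and 3.36, edgeR adjusted p = 1.92e-05 and 6.16e-05), at levels of 0.0706 to 1.91 FPKM. Without knockout day 0 replicate 2 its knockout values became 3.6 and 4.15, and without the library labelled KO day 2 replicate 1 the day 2 value was 2.98. Lypd6b fell on day 2 in both (log2 -2.83 and -3.17, edgeR adjusted p = 4.42e-05 and 1.83e-05), with the knockout value at -2.37 without the library labelled KO day 2 replicate 1 and -5.37 without the other, and the wild-type value at -3.69 without day 2 replicate 2. Cd59a, which encodes an inhibitor of complement on red cells and other cells, rose on day 5 (log2 3.70 and 3.33, edgeR adjusted p = 1.77e-06 and 2.63e-06), a day on which erythroid markers had risen, and without day 0 replicate 2 of each genotype its values were 4.64 and 4.17. The part of the erythroid markers in the Cd59a level was not tested. In the list for GPI-anchor synthesis and attachment, which serves most of these proteins, 27 of 28 genes were tested. On day 1, 7 rose and 2 fell in wild type, and 9 and 4 in knockout. Over all genes 21.9% rose and 22.7% fell on that day in wild type, and 20.7% and 20.9% in knockout. The anchor-remodelling gene Pgap1 fell on day 1 (log2 -2.25 in wild type and -2.91 in knockout, edgeR adjusted p = 1.68e-09 and 1.09e-10). The wild-type count of 7 became 14 with limma on log2 FPKM, and 2, 3 and 4 without wild-type day 1 replicate 1, day 0 replicate 2 and day 1 replicate 2.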

How the data were processed

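RNA of 16 spleen libraries, 2 for each of 8 groups, was read from the deposited tables, which per the file headers hold a fragment count, an FPM, an FPKM and a transcript length for each of 142604 transcripts. Trimmomatic, TopHat, HISAT2, bcl2fastq 2.17.1.14 and mm10 are named in the submitters' processing notes, with no role stated for any. The sources used here do not give the counting program, the annotation or the read length. In the deposited files FPM is the count scaled by a library total, and FPKM is FPM divided by length in kilobases. A fragment can be counted for several isoforms, so 1 transcript was kept per symbol, the protein-coding one with the highest mean count in GENCODE M21.

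The counts as deposited, scaled by TMM over the total fragments, were fitted with edgeR 4.0.16 in R 4.3.3 (filterByExpr, 18744 genes, a mean for each group, and the robust quasi-likelihood test, two-sided, with 8 residual degrees of freedom). P-values were adjusted by Benjamini-Hochberg over all genes tested, with calls under 0.05, and CPM are counts over the TMM-scaled totals. The common biological coefficient of variation was 13.1%. The fit was also run on simulated counts with a common spread for all genes. That setting is simpler than these libraries, so it does not test the fit at their spread. Alternatives were DESeq2 1.42.0, limma 3.58.1 on log2(FPKM + 0.1) and log2(FPKM + 1) for genes of at least 0.5 FPKM in 2 libraries, other size factors, no filter, other transcript choices, the groups compared only, a replicate block and leaving out each library. All 8 members are named whatever their result, with the 3 genes of highest correlation for each and up to 2 genes per list by size of change. The members and the lists were chosen with earlier results of these data known. Replicates differed by more than counting error in each group.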

Additional observations from a re-analysis of the deposited data

How the results depend on the processing

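Of 26 changes of members against day 0 that passed the test, 19 passed in all 25 alternatives and none reversed. The number of members past the threshold on day 5 moved in wild type from 2 to 1 with limma at either offset and from 1 to 3 over the analyses leaving out 1 library. In knockout it moved from 2 to 1 with a transcript of any type and with limma at either offset, and again from 1 to 3 when 1 library was left out. The description of knockout against wild type on day 1 moved with limma at offsets of 0.1 and 1 for Ly6a (-0.56 and -0.56), Ly6d (0.11 and 0.11) and Ly6e (-0.32 and -0.32), with limma at 0.1 for Ly6c1 (-1.06), and without a filter for Ly6d (0.27). Limma on FPKM also moved the median of all genes, to 0.249 on day 1 in wild type against -0.0706 as reported, to 0.12 in knockout against -0.0362, and to -0.22 for the genotypes on day 1 against -0.0182. On that contrast Ly6g, Ly6i and Ly6k changed sign over the alternatives, within -0.44 to 0.48, -0.59 to 0.15 and -0.45 to 0.35.

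Replicate numbers in the labels pair no mice, and the correlation of deviations between same-numbered libraries ran from -0.21 to 0.333 over 28 pairs of groups. With the replicate block the members past the threshold stayed at 6, 5 and 2 in wild type and 7, 4 and 2 in knockout. Over all genes the block gave 26 calls between genotypes on day 1 against 35. That count was 145 with DESeq2, 332 with the groups compared only, 437 without a filter, 12 with isoforms summed, and 0 and 6 with limma. On day 0 it was 4, against 8, 60 and 0 with DESeq2, no filter and summed isoforms. On day 5 it was 1, against 73 with DESeq2 and 207 without a filter. Over the 16 analyses that left out 1 library the day 1 count ran from 4 (without knockout day 1 replicate 2) to 184 (without wild-type day 0 replicate 1). The day 0 count then ran from 0 to 56 (without wild-type day 0 replicate 1), that of day 2 from 0 to 40 (without knockout day 2 replicate 2) and that of day 5 from 0 to 12 (without knockout day 2 replicate 1). The cause of these shifts was not tested. With 2 libraries a group, Ly6g, Ly6i and Ly6k are limited most by depth and spread.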
